A study of Mus musculus with 33 samples.

Results

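The 9 genes described here make, carry, read out and break down retinoic acid, and they were followed in whole embryonic mouse kidneys: Rdh10, Adh1, Aldh1a2, Aldh1a3, Crabp1, Crabp2, Rara, Rarb and Cyp26b1. They were taken by symbol as 9 of the 35349 gene symbols of a raw count table, and Adh1 was included because it was already known to be higher in heterozygous kidneys at embryonic day 11.5 (E11.5). RNA had been sequenced from kidneys of wild-type, heterozygous and knockout genotype for Six2, the homeodomain factor that keeps nephron progenitors undifferentiated. The 33 libraries came from 24 specimens. At E11.5 there were 6 wild-type specimens (4 female, 2 male), 5 heterozygous (2 female, 3 male) and 5 knockout (4 female, 1 male). At E15.5 there were 4 wild-type and 4 heterozygous specimens, each group with 1 female and 3 males. In part of the E15.5 libraries the titles read GCE for heterozygous and Cont for wild-type specimens, and the labels do not explain GCE. Apart from that tag, no other allele or treatment is named for any group. The strain and the way the Six2 allele was made are not given in the sources used here. The labels do not say whether specimens were single animals or pools, so the p-values measure the spread between these specimens.

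Retinoic acid is made from vitamin A in a pair of oxidations: retinol to retinaldehyde, for which RDH10 is the main embryonic enzyme and ADH1 a cytosolic one, and retinaldehyde to retinoic acid, by ALDH1A2 or ALDH1A3. Inside the cell CRABP1 and CRABP2 carry it, CYP26B1 oxidises it to inactive products, and the nuclear receptors RARA and RARB, paired with an RXR, bind it on DNA. In the developing kidney the stroma makes retinoic acid through Aldh1a2 and carries Rara and Rarb, the ureteric bud expresses Aldh1a3, and retinoid signalling supports Ret expression in the bud and its branching.

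The receptors bind direct repeats of a hexamer, and the textbook case is the promoter of Rarb itself, which is shown because Rarb is both a receptor and a target in this set. The sequence runs 5′ to 3′ on the gene's strand (minus) up to the base before a transcript start, from RefSeq on GRCm38.p6 at chr14:16575477-16575576, and the capitals mark the repeat:
Rarb: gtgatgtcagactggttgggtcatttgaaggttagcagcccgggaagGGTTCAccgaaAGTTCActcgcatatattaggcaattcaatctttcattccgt
The repeat is 17 bases long, at chr14:16575513-16575529, from 53 to 37 bases before the start. The search used the hexamer AGGTCA with its variants, which were AGTTCA, then GGGTCA, and last GGTTCA, on both strands and as direct repeats spaced by 1, 2 or 5 bases. Of 32851 RefSeq promoter windows of mouse genes, 32 (0.0974%) held a repeat spaced by 5, 73 (0.222%) one spaced by 1 and 88 (0.268%) one spaced by 2. The table matched 6 of the 9 genes with 9 windows, and the Rarb window was the single one of these 9 with any such repeat. Both hexamers of this textbook repeat and its spacing of 5 were among those searched. The Rarb match was thus fixed in advance, and nothing is read from it beside the share of all windows. A match of letters is a description and not a measured binding site.

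The genotype labels were checked on Six2 itself. In CPM, which are counts scaled to 1e+06 of a specimen's library size after edgeR's TMM adjustment, its E11.5 level was 25.0 ± 5.63 (SD, n = 6) with both copies, 13.1 ± 2.88 (n = 5) with 1 copy and 0.473 ± 0.134 (n = 5) with none. At E15.5 it was 11.7 ± 0.834 with both copies and 6.15 ± 0.342 with 1 (n = 4 each). Library totals, in units of 1e+06 counts, spanned 10.82 to 26.23 at E11.5 and 16.8 to 42.07 at E15.5. At E11.5 the 2 labelled batches held different specimens, except 1 heterozygous specimen read as run in both. That reading rests on 2 titles that differ only in the replicate number, and no label states it. Of the E11.5 libraries, 6 stood apart by more than 5% of counts on 8 ribosomal RNA symbols: the batch 1 wild-type libraries held 16% to 21%, the batch 1 heterozygous ones 4.03% to 15.1%, the batch 1 knockout ones 1.45% to 10.2%, and those of batch 2 at most 1.4%. Each E11.5 call below is therefore also given without these libraries and within each batch. Kidney markers were detected in every group: none of the 9 nephron progenitor, 8 renal stroma or 9 ureteric epithelium marker genes was at 0 in any group.

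Per kilobase of the deposited gene length, the only scale on which genes are compared here, Aldh1a2 had the highest mean of the 9 in wild-type kidneys at E11.5, at 177 CPM per kilobase. It was followed by Crabp1 at 144 and Crabp2 at 116, and these neighbours overlapped in range. Rdh10 came next at 45.1, then Rarb at 29.9 and Rara at 12.9, each clear of its neighbours in all 6 specimens. The lowest levels per kilobase were those of Aldh1a3 at 5.71, Adh1 at 4.17 and Cyp26b1 at 3.86, which overlapped in turn. By E15.5 the order in wild-type kidneys was Aldh1a2 at 141, Rarb at 28.1, Crabp2 at 26.9, Crabp1 at 25.4, Rdh10 at 17.3, Aldh1a3 at 14.9, Rara at 7.95, Adh1 at 6.03 and Cyp26b1 at 3.27, and Crabp2 and Crabp1 were the single pair of neighbours whose ranges overlapped. The rank of Rarb depends on its length, which is deposited as 3042 bases while GENCODE vM21 gives 5265 exonic bases, 1.73 times more. With the annotated lengths Rarb would be at 17.3 at E11.5, still between Rdh10 and Rara, and at 16.2 at E15.5, below Crabp2, Crabp1 and Rdh10. For the other 8 genes the ratio of annotated to deposited length was 0.994 to 1.1. Aldh1a2 exceeded Aldh1a3 per kilobase by 20.9 to 48.2 times in the 6 wild-type specimens at E11.5 and by 9.16 to 9.73 times in the 4 at E15.5.

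**Figure D1:**
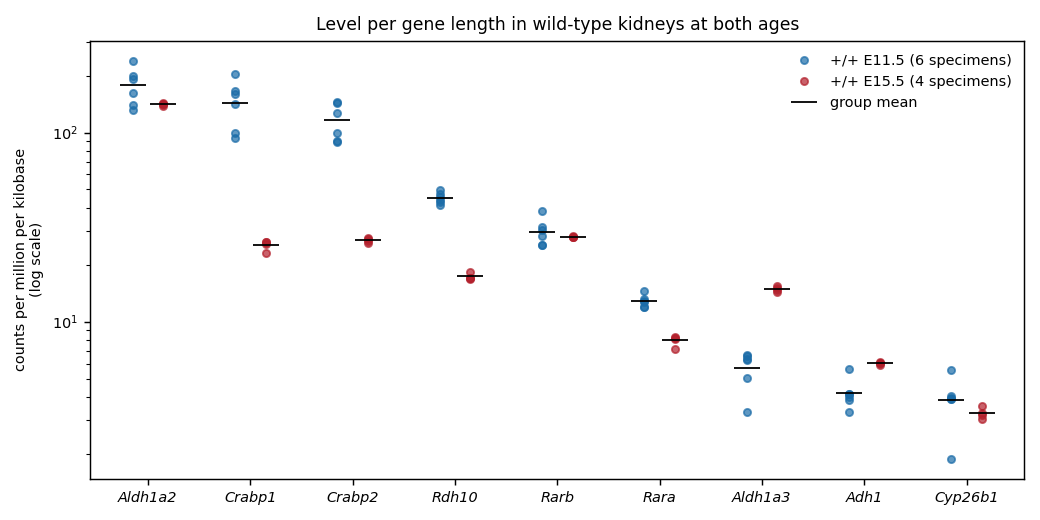
Level of each gene in wild-type kidneys, in CPM per kilobase on a log axis, with 1 point per specimen (6 at E11.5, 4 at E15.5) and a dash at the group mean. Aldh1a2 leads at both ages, Crabp1, Crabp2 and Rdh10 sit far lower at E15.5, and Aldh1a3 sits higher.

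Of the 9 genes, those that passed in a genotype comparison by edgeR were Rdh10, Adh1, Aldh1a3 and Cyp26b1. All of these encode enzymes, as does Aldh1a2, which did not pass. Crabp1, which encodes a carrier, passed by DESeq2 in heterozygotes at E15.5 (DESeq2 adjusted p = 0.0491). In knockout against wild-type kidneys at E11.5, Rdh10 fell and Adh1 and Aldh1a3 rose, so that 3 of 9 passed edgeR's quasi-likelihood test at a Benjamini-Hochberg adjusted p of 0.05, where 7.09% of the 16141 genes tested did. Adh1 is not independent of its choice in that count, since the wild-type values that chose it are also the reference here. In knockout against heterozygous kidneys 2 of 9 passed (background 3.69%): Rdh10 fell and Aldh1a3 rose. In heterozygous against wild-type kidneys at E11.5 Adh1 alone passed, which is the value it was chosen for (background 0.0681%), and nothing is read from that count. In heterozygous against wild-type kidneys at E15.5 2 of 9 passed, both higher: Rdh10 and Cyp26b1 (background 0.57% of 18244 genes). With batch left out of the fit, as with no replicate block, 0 of 9 passed by edgeR in each E11.5 comparison (lowest edgeR adjusted p 0.0657, for Rdh10 in knockout against heterozygous kidneys). The 3 comparisons at E11.5 share their groups, so their values are given side by side and not as separate evidence. The median log2 fold change of the 9 genes was -0.014, 0.042, -0.017 and 0.025 in these 4 comparisons, against -0.0022, -0.002, 0.0089 and 6e-04 over all genes tested.

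Most of the 9 genes differed between the ages. From E11.5 to E15.5 in wild-type kidneys 7 of 9 passed, 2 higher and 5 lower. Of all 17362 genes 66.1% passed, 5908 higher and 5571 lower, so the share that passed is near the background. Adh1, 1 of the 2 higher, is not independent of its choice, since the wild-type values that chose it are the reference here. The median log2 change of the 9 was -0.29, against -0.003 over all genes tested. The labels do not say whether the batch numbers mean the same runs at both ages, and age and the batches of each age cannot be told apart. The effect of 1 Six2 copy did not pass as different between the ages for any of the 9 by edgeR or by DESeq2 (background 0.00576%). At an unadjusted p under 0.05 there was 1, Adh1, where 3.42% of all genes were, and nothing is read from it because its E11.5 part is the value that chose Adh1.

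**Figure D2:**
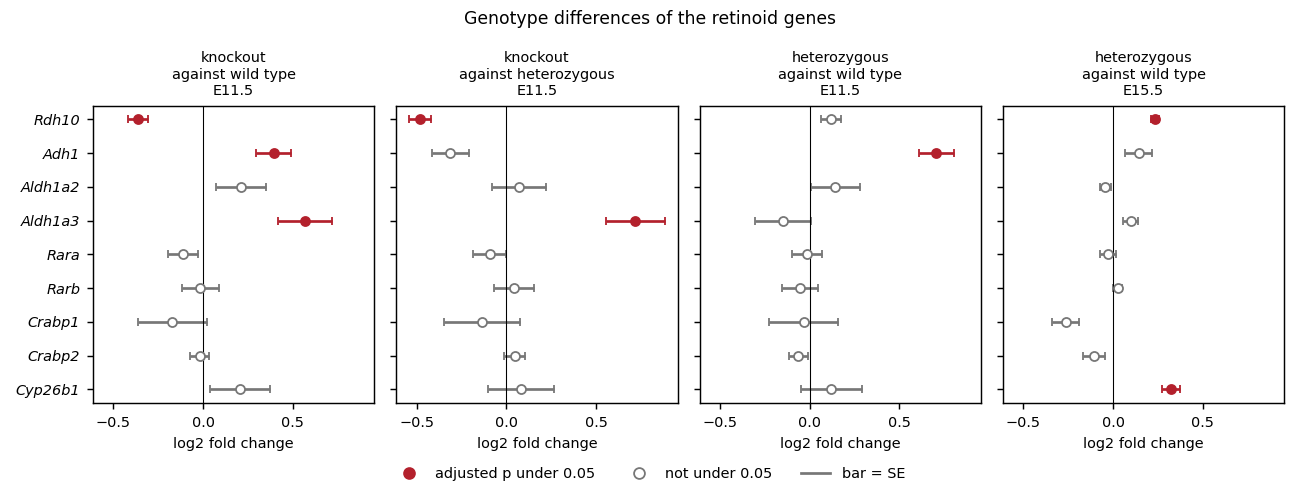
Log2 fold change of each gene (horizontal axis, bar = standard error) in the 4 genotype comparisons, filled where the adjusted p was under 0.05. Rdh10 lies left of 0 in both knockout panels and right of 0 in the E15.5 panel, and Aldh1a3 lies right of 0 in both knockout panels.

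Rdh10 (chr1:16105774-16133734, plus strand, mm10) encodes the retinol dehydrogenase that supplies most retinaldehyde in the embryo. Its levels at E11.5 were 172, 186 and 206 CPM (lowest, median and highest of 6) in wild-type kidneys. The heterozygous kidneys had 199, 221, 209, 186 and 199 CPM. The knockout kidneys had 153, 159, 182, 129 and 123 CPM. All 5 knockout values lay below every heterozygous value, and 1 knockout, at 182, lay within the wild-type range. That knockout was in batch 1, where the wild-type kidneys had 196, 206 and 189 CPM. The fitted log2 fold change was -0.36 ± 0.056 (SE, edgeR adjusted p = 0.000526) against wild type and -0.48 ± 0.061 (edgeR adjusted p = 0.000179) against heterozygous kidneys.

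The Rdh10 decrease against wild type was -0.23 in batch 1 alone (edgeR adjusted p = 0.211) and -0.49 in batch 2 alone (edgeR adjusted p = 0.0103). Against heterozygous kidneys the batches gave -0.25 (edgeR adjusted p = 0.496) and -0.62 (edgeR adjusted p = 0.00684). In batch 1 all heterozygous specimens were male and all knockouts female. There the fit tells this difference from sex only through the wild-type specimens. Without the libraries above 5% ribosomal counts the decreases were -0.46 (edgeR adjusted p = 0.0141) and -0.55 (edgeR adjusted p = 0.00288). No single specimen decided either call: the edgeR adjusted p stayed at or under 0.0086 and 0.00568 when each of the 16 was left out. In whole kidneys fewer cells of a type and less RNA per cell cannot be told apart. In the same comparison with wild type all 9 nephron progenitor markers fell, where 7.09% of all genes tested passed. Their summed level ran from 710 to 1110 CPM in wild-type and from 287 to 368 CPM in knockout kidneys. Of the renal stroma markers 0 of 8 passed (2990 to 5230 against 3800 to 4900 CPM). The marker lists were chosen with earlier results of these data known. The fall of all 9 is therefore a description and not a separate measure of cell content. Markers of neural crest, sympathetic neurons and glia had a median log2 change of 0.71 in knockout against wild-type and 0.89 against heterozygous kidneys. Of these 9, 6 and 7 were at an unadjusted p under 0.05 by edgeR, where 20.2% and 18.5% of all genes were. After adjustment 8 of 9 did not pass in each comparison. The knockout kidneys summed to between 140 and 208 CPM of these 9, the heterozygous to between 95.9 and 144 and the wild-type to between 70.7 and 192. The part of these cells in the knockout differences of Rdh10, Adh1 and Aldh1a3 was not tested.

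A single Six2 copy left Rdh10 at 0.12 ± 0.055 on the log2 scale at E11.5, which did not pass (edgeR adjusted p = 0.604). At E15.5 the 4 wild-type kidneys had 70.4, 76.0, 71.1 and 70.7 CPM and the 4 heterozygous kidneys 81.8, 83.4, 84.5 and 90.7 CPM. The groups did not overlap, and the rise of 0.23 ± 0.023 (fold 1.18, edgeR adjusted p = 0.000453) passed with each specimen left out in turn and in the batch 1 runs (0.24) and batch 2 runs (0.22) alone. Nephron progenitor markers were divided in this comparison, with 1 of 9 higher (Eya1) and 4 lower (Cited1, Crym, Meox1 and Spock2). Of all genes tested 0.57% passed, and the part of these markers was not tested. With age Rdh10 fell by 1.36 ± 0.053 on the log2 scale in wild-type kidneys, to 38.4% of its E11.5 mean (edgeR adjusted p = 9.11e-16).

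Adh1 (chr3:138260991-138290698, plus strand) encodes a class I alcohol dehydrogenase that oxidises retinol as well as ethanol. It is a low gene here, with at least 85 counts in each library. In wild-type kidneys at E11.5 it ran from 7.5 through a median of 9.09 to 12.5 CPM. The heterozygous values, which chose it, were 15.2, 13.7, 15.1, 16.6 and 16.3 CPM, all above every wild-type value. As a description, the difference was 0.71 ± 0.10 on the log2 scale, 0.54 in batch 1, 0.70 in batch 2 and 0.71 without the libraries above 5% ribosomal counts.

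The knockout kidneys had 11.2, 10.5, 10.4, 13.8 and 14.3 CPM of Adh1, between the other genotypes in mean (12 ± 1.87, against 9.36 ± 1.7 in wild type and 15.4 ± 1.16 in heterozygotes). The rise against wild type was 0.39 ± 0.10 (edgeR adjusted p = 0.0185), and the difference of -0.31 ± 0.10 from heterozygotes did not pass (edgeR adjusted p = 0.108). Both differences use groups whose values chose Adh1, so neither is independent of that choice. The wild-type call rested on few specimens: it was lost without knockout replicate 4 (edgeR adjusted p = 0.0541) or replicate 5 (edgeR adjusted p = 0.0947), and in batch 1 (0.41, edgeR adjusted p = 0.247) and batch 2 (0.48, edgeR adjusted p = 0.276) alone. Without the libraries above 5% ribosomal counts it was 0.42 (edgeR adjusted p = 0.163), and with the log2 ribosomal share as covariate 0.41 (edgeR adjusted p = 0.0546). Among gonad and adrenal markers, 1 of 5 tested passed in this comparison (background 7.09%), Mc2r, which fell by 0.54. The summed level of the 7 listed ran from 6.89 to 12.6 CPM in wild-type and from 6.39 to 32.8 CPM in knockout kidneys. The knockout values were uneven, with Lhx9 from 0.232 to 9.98 and Gata4 from 0.74 to 10.9 CPM. In heterozygous against wild-type kidneys at E11.5 0 of these 5 passed, with a median log2 change of 0.69 and sums of 9.28 to 16.4 CPM in heterozygotes. The part of these markers was not tested.

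At E15.5 Adh1 stood at 13.5, 13.8, 13.2 and 13.6 CPM in wild-type and 17.4, 16.1, 14.6 and 11.9 CPM in heterozygous kidneys. These groups overlapped, and the difference of 0.14 ± 0.076 did not pass (edgeR adjusted p = 0.693). The heterozygous effect at E15.5 minus that at E11.5 was -0.55 ± 0.13 on the log2 scale. This is a description, because the E11.5 effect subtracted is the one that chose Adh1, and it did not pass (edgeR adjusted p = 1). With age wild-type Adh1 rose by 0.50 ± 0.097 (edgeR adjusted p = 0.000101). That rise starts from the E11.5 wild-type values that chose Adh1, so it is not independent of the choice. An antisense gene, Gm16559, shares 136 exonic bases with Adh1, and its count was at most 10 in any library.

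**Figure D3:**
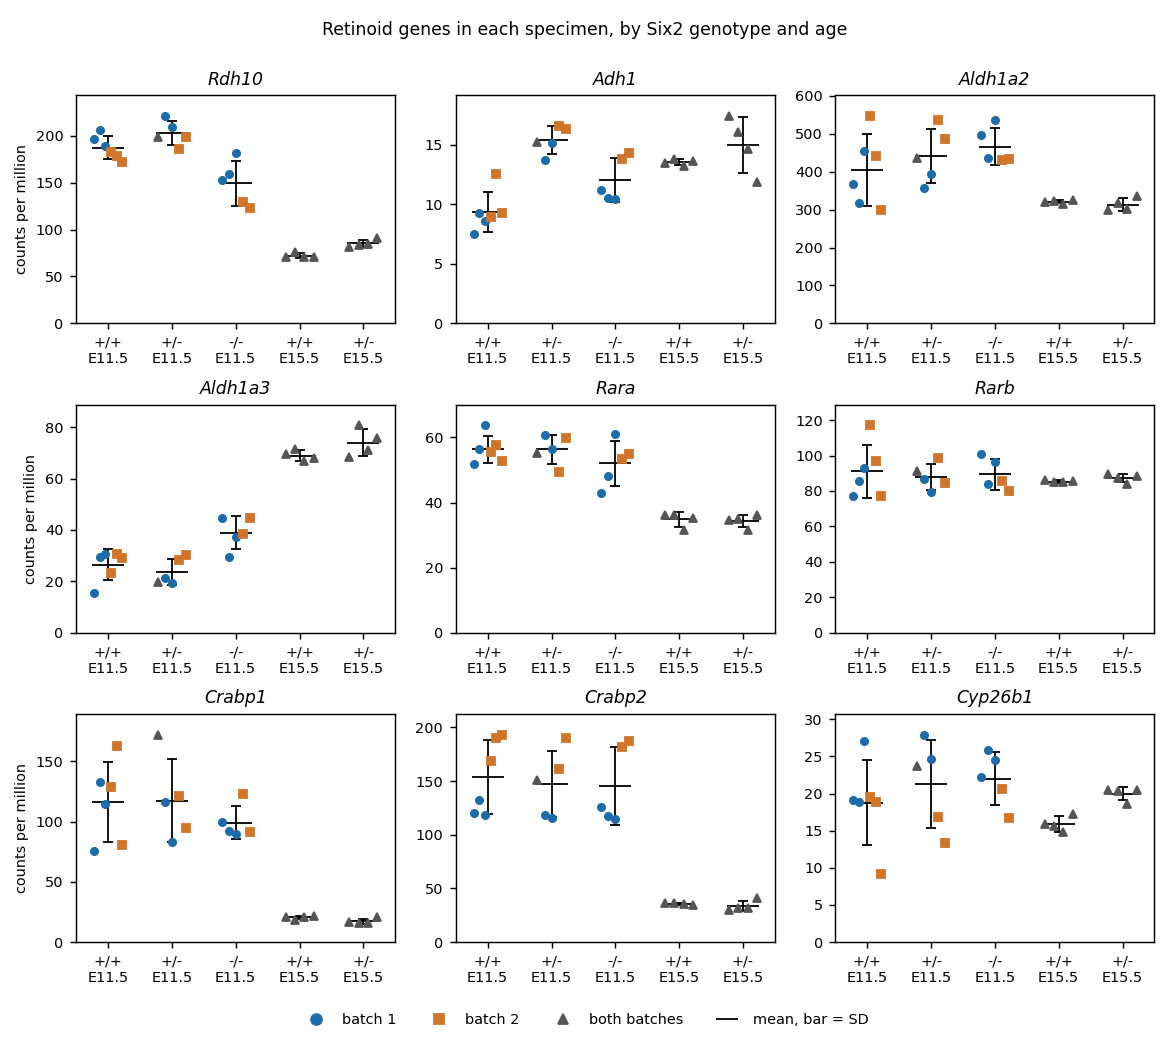
Level of each of the 9 genes in CPM in each specimen, by Six2 genotype and age, with points marked by labelled batch and bars giving the mean and SD. The knockout kidneys sit low for Rdh10 and high for Aldh1a3, the heterozygous E11.5 kidneys sit high for Adh1, and Crabp2 separates by batch in all 3 E11.5 genotypes.

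Aldh1a2 (chr9:71215789-71296243, plus strand) encodes the main retinaldehyde dehydrogenase of embryonic mesoderm. Wild-type kidneys at E11.5 spread from 298 through 404 to 547 CPM, heterozygous ones from 358 to 537 and knockout ones from 430 to 536. All 3 groups overlapped. None of its genotype differences passed: 0.21 ± 0.14 in knockout against wild type (edgeR adjusted p = 0.431), 0.068 ± 0.15 against heterozygotes (edgeR adjusted p = 0.854), and 0.14 ± 0.14 (edgeR adjusted p = 0.8) and -0.044 ± 0.031 (edgeR adjusted p = 0.768) in heterozygotes at E11.5 and E15.5. The E15.5 values were narrow, 315 to 326 CPM in wild-type and 298 to 336 CPM in heterozygous kidneys. The change with age, a fall of 0.29 ± 0.13, was barely under the threshold (edgeR adjusted p = 0.0491) and became -0.10 (edgeR adjusted p = 0.417) without the highest wild-type specimen at E11.5, replicate 4. It was also lost without wild-type replicate 3 or 5 at E11.5, any of the 4 wild-type specimens at E15.5, or any of 7 specimens of the other genotypes.

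Aldh1a3 (chr7:66390890-66427517, minus strand) encodes the retinaldehyde dehydrogenase of the ureteric bud. The wild-type range at E11.5 was 15.4 to 30.7 CPM with a median of 29.2, and the heterozygous kidneys had 19.7, 21.3, 19.2, 28.4 and 30.1 CPM. The knockout kidneys had 44.8, 29.4, 37.3, 38.5 and 44.6 CPM, so that 4 of 5 lay above every wild-type and heterozygous value. The rise was 0.57 ± 0.15 against wild type (fold 1.48, edgeR adjusted p = 0.0315) and 0.72 ± 0.17 against heterozygous kidneys (fold 1.65, edgeR adjusted p = 0.0229).

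With the log2 ribosomal share as covariate the rise against wild type was 0.44 (edgeR adjusted p = 0.193). These Aldh1a3 calls were less firm than those of Rdh10. Against wild type the call was lost without knockout replicate 1, 3 or 5 or wild-type replicate 4 or 6, with edgeR adjusted p from 0.0512 to 0.171. Against heterozygotes it was lost without heterozygous replicate 1, 2 or 3 or knockout replicate 5, with edgeR adjusted p from 0.0507 to 0.178. The sizes within batches were 0.67 and 0.66 against wild type (edgeR adjusted p = 0.218 and 0.0915) and 1.25 and 0.74 against heterozygotes (edgeR adjusted p = 0.279 and 0.0994). Without the libraries above 5% ribosomal counts they were 0.63 (edgeR adjusted p = 0.0278) and 0.72 (edgeR adjusted p = 0.00762). The 1.25 of batch 1 compared female knockouts with male heterozygotes, and only the wild-type specimens there tell it from sex. Of the ureteric epithelium markers 3 of 9 rose in the knockout against wild type (Calb1 by 0.88, Wnt9b by 0.72 and Gata3 by 0.52) and 0 fell (background 7.09%). The other 6 did not pass, and the means of Wnt11 (45.9 and 41.9 CPM) and Cdh1 (22.5 and 20.4 CPM) were lower in the knockout. The summed level of the 9 ran from 219 to 434 CPM in wild-type and from 359 to 517 CPM in knockout kidneys. Against heterozygous kidneys (301 to 418 CPM) 0 of these 9 passed (background 3.69%). Their part in the Aldh1a3 rise was not tested.

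One Six2 copy gave Aldh1a3 differences of -0.15 ± 0.16 at E11.5 (edgeR adjusted p = 0.813) and 0.097 ± 0.043 at E15.5 (edgeR adjusted p = 0.591), neither of which passed. With age it rose more than any of the other 8, by 1.42 ± 0.13 (fold 2.67, edgeR adjusted p = 3.36e-09), to 69.5, 71.6, 66.7 and 67.9 CPM in the 4 wild-type kidneys at E15.5. Of the ureteric epithelium markers 8 of 9 rose with age and none fell, where 66.1% of all genes tested passed. Their sums were 755 to 797 CPM at E15.5, and their part was not tested.

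The binding proteins fell steeply with age. Crabp1 (chr9:54764748-54773110, plus strand) ran from 75.8 through 122 to 163 CPM in wild-type kidneys at E11.5 and from 18.7 to 21.3 CPM at E15.5, a fall of 2.54 ± 0.20 on the log2 scale (edgeR adjusted p = 1.99e-10). Crabp2 (chr3:87948666-87953376, plus strand) ran from 118 through 150 to 193 CPM and then from 34.8 to 36.7 CPM, a fall of 2.05 ± 0.072 (edgeR adjusted p = 1.63e-16). In neither gene did the ages overlap, and wild-type means at E15.5 were 17.6% and 23.2% of those at E11.5. All 9 markers of neural crest, sympathetic neurons and glia fell with age too, where 66.1% of all genes tested passed. They summed to 70.7 to 192 CPM at E11.5 and 20.3 to 25.7 CPM at E15.5, and the part of these cells was not tested.

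Neither binding protein passed between genotypes at E11.5. Crabp1 differed by -0.17 ± 0.19 in knockout against wild type (edgeR adjusted p = 0.682), by -0.14 ± 0.21 against heterozygotes (edgeR adjusted p = 0.782) and by -0.034 ± 0.19 in heterozygotes against wild type (edgeR adjusted p = 0.971). Crabp2 gave tighter values of -0.019 ± 0.052, 0.046 ± 0.057 and -0.065 ± 0.053 (edgeR adjusted p = 0.887, 0.718 and 0.743). At E11.5 Crabp2 was the one of the 9 whose batches did not overlap in any of the 3 genotypes, in values scaled over libraries instead of specimens. Batch 1 libraries held 121 to 133 CPM (wild type), 115 to 119 (heterozygous) and 117 to 128 (knockout). Batch 2 libraries held 169 to 193, 162 to 193 and 181 to 186 CPM in the same order. In the 1 heterozygous specimen read as run in both batches the batch 2 run was higher by 0.55 on the log2 scale, while in the 8 specimens at E15.5 it was higher by 0.052 to 0.24. Adh1 was also higher in the batch 2 run of that E11.5 specimen, by 0.55, and its mean was higher in batch 2 in each E11.5 genotype (8.62 and 10.2 CPM in wild-type, 13.6 and 16.8 in heterozygous, 10.9 and 14 in knockout libraries). Cyp26b1 was lower in batch 2 in each, at 22.1 and 15.8, 27 and 17.6, and 24.6 and 18.6 CPM in the same order. Rdh10 was lower in batch 2 as well, at 201 and 178, 211 and 198, and 168 and 126 CPM. In the specimen read as run in both, Rdh10 was higher in the batch 2 run, by 0.024 on the log2 scale.

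At E15.5 Crabp1 stood at 20.8, 18.7, 21.2 and 21.3 CPM in wild-type and 16.4, 15.7, 16.2 and 20.7 CPM in heterozygous kidneys. The groups overlapped through 1 heterozygous specimen, and the difference of -0.26 ± 0.077 did not pass by edgeR (edgeR adjusted p = 0.262) but did by DESeq2 (DESeq2 adjusted p = 0.0491). Without that specimen, replicate 4, the difference was -0.39 (edgeR adjusted p = 0.00197), and without wild-type replicate 2 it was -0.40 (edgeR adjusted p = 0.00163). These are the females of their groups, 1 in each, and with either left out the sex term leaves the comparison to the males. Crabp2 in the same comparison was -0.10 ± 0.061 (edgeR adjusted p = 0.722).

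The receptors did not pass in any genotype comparison. Rara (chr11:98927818-98974942, plus strand), which encodes the broadly expressed retinoic acid receptor alpha, ran at E11.5 from 52.0 to 63.7 CPM with both Six2 copies, from 49.4 to 60.8 with 1 and from 42.8 to 61.0 with none. Its differences were -0.11 ± 0.084 and -0.093 ± 0.091 in the knockout against wild type and heterozygotes, and -0.017 ± 0.084 and -0.029 ± 0.046 in heterozygotes at E11.5 and E15.5 (edgeR adjusted p = 0.508, 0.632, 0.967 and 0.936). With age Rara fell by 0.70 ± 0.083 (edgeR adjusted p = 1.46e-07), to 31.5 to 36.3 CPM.

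Rarb (chr14:16430839-16819156, minus strand) encodes retinoic acid receptor beta and carries the repeat printed above. Wild-type kidneys at E11.5 had 77.1 through 89.5 to 117 CPM. Heterozygotes had 79.2 to 98.6 and knockouts 79.9 to 101 CPM, and all groups overlapped. The genotype differences were -0.014 ± 0.10 and 0.042 ± 0.11 in the knockout against wild type and heterozygotes, and -0.056 ± 0.10 and 0.025 ± 0.024 in heterozygotes at E11.5 and E15.5 (edgeR adjusted p = 0.963, 0.882, 0.897 and 0.859). At E15.5 the values were within 84.8 to 86.1 CPM in wild-type and 83.8 to 89.4 CPM in heterozygous kidneys. Its change with age, -0.10 ± 0.091, did not pass (edgeR adjusted p = 0.339), though in batch 2 libraries alone it was -0.25 (edgeR adjusted p = 0.0302). In the GENCODE vM21 annotation 1793 exonic bases of Rarb are shared with Top2b on the other strand, whose count reached 25958 in a library. Whether the counting used strand is not given in the sources used here, so the Rarb level is uncertain where they overlap.

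Cyp26b1 (chr6:84571414-84593908, minus strand) encodes the cytochrome P450 that breaks retinoic acid down. At E11.5 it ran from 9.11 through 19.0 to 27.1 CPM in wild-type kidneys, from 13.4 to 27.9 in heterozygous and from 16.7 to 25.9 in knockout ones. The groups overlapped almost entirely, and none of the differences passed: 0.20 ± 0.17 in knockout against wild type, 0.084 ± 0.18 against heterozygotes and 0.12 ± 0.17 in heterozygotes against wild type (edgeR adjusted p = 0.546, 0.854 and 0.861).

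At E15.5 the spread was narrow and the heterozygotes were higher. Wild-type kidneys had 15.9, 15.6, 14.8 and 17.3 CPM of Cyp26b1 and heterozygous ones 20.5, 20.4, 18.6 and 20.5 CPM, with no overlap. The rise was 0.32 ± 0.052 (fold 1.25, edgeR adjusted p = 0.0156), 0.31 in the batch 1 runs (edgeR adjusted p = 0.0388) and 0.34 in the batch 2 runs (edgeR adjusted p = 0.0651). The size held from 0.29 to 0.37 with each specimen left out, but the call was lost without wild-type replicate 1, 2 or 3 or heterozygous replicate 1, 2 or 4, with edgeR adjusted p up to 0.0938. Of the skeletal muscle and cartilage markers 1 of 6, Col2a1, fell in these heterozygotes, by 0.60 (background 0.57%). The sums were 67.7 to 68.6 CPM in wild-type and 42.8 to 52.7 CPM in heterozygous kidneys. Among renal stroma markers 0 of 8 passed (4540 to 4870 against 4680 to 5160 CPM). The part of other cells was not tested. With age Cyp26b1 differed by -0.26 ± 0.15 in wild-type kidneys, which did not pass (edgeR adjusted p = 0.138). It passed without wild-type replicate 6 at E11.5 (-0.36, edgeR adjusted p = 0.0105) and in batch 1 libraries alone (-0.38, edgeR adjusted p = 0.00671).

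The heterozygous effect at E15.5 minus that at E11.5 was tested for all 9. Besides Adh1 the log2 differences were 0.11 ± 0.072 for Rdh10, -0.18 ± 0.18 for Aldh1a2, 0.26 ± 0.19 for Aldh1a3, -0.019 ± 0.11 for Rara, 0.083 ± 0.13 for Rarb, 0.19 ± 0.21 for Cyp26b1, -0.24 ± 0.27 for Crabp1 and -0.047 ± 0.096 for Crabp2. Each had an edgeR adjusted p of 1. The passing of Rdh10 and Cyp26b1 at E15.5 and not at E11.5 was therefore not shown to be a difference between the ages.

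Another 39 genes of retinoid uptake, metabolism and response machinery were counted around the 9. At E11.5 25 of them had enough counts to be tested. The 14 that did not include Cyp26a1 and Cyp26c1, the other members of the Cyp26 family, and none of the 14 exceeded 0.768 CPM in an E11.5 specimen. In knockout against wild-type kidneys 2 of 25 rose and 0 fell (background 7.09%), with a median of -0.026. They were Rxra, the RXR partner receptor, from 126 ± 12.7 to 148 ± 12 CPM (0.26 ± 0.050, edgeR adjusted p = 0.00457), and Nrip1, a ligand-dependent receptor corepressor, from 156 ± 35.5 to 188 ± 36.7 CPM (0.22 ± 0.066, edgeR adjusted p = 0.0497). Rxra passed with each of the 16 specimens left out (edgeR adjusted p at most 0.0227) and under 7 of 12 other alternatives. It did not pass in batch 1 (0.31, edgeR adjusted p = 0.0785) or batch 2 alone (0.24, edgeR adjusted p = 0.246), or without the libraries above 5% ribosomal counts (0.20, edgeR adjusted p = 0.202). Nrip1 passed with 2 of 16 left out and under 3 of 12. Its values were 0.18 and 0.24 within the batches (edgeR adjusted p = 0.374 in both) and 0.25 without those libraries (edgeR adjusted p = 0.163). With the prefix that opens the E11.5 titles, of no stated meaning, as block in place of batch, Nrip1 was at -0.12 (edgeR adjusted p = 0.629).

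In knockout against heterozygous kidneys 0 of the 25 passed by edgeR, with 6 at an unadjusted p under 0.05 (18.5% of all genes were) and 1 by DESeq2. In heterozygous against wild-type kidneys at E11.5 0 of 25 passed by edgeR or DESeq2, with 2 at an unadjusted p under 0.05 (8.25% of all genes). The heterozygous effect differed between the ages for 0 of 30 by edgeR or DESeq2, with 1 at an unadjusted p under 0.05 (3.42% of all genes).

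With age 23 of 30 of these genes passed in wild-type kidneys, 11 higher and 12 lower, beside the 66.1% of all genes. Over all 17362 genes tested 5908 were higher and 5571 lower. Of the receptors and cofactors 9 of 12 were lower and 1, the coactivator Ncoa1, higher. Among them were Nr2f1, an orphan receptor of the COUP-TF family, by -1.65 ± 0.071, Rxrg by -0.73 ± 0.22 and Rarg by -0.63 ± 0.082. Among retinol and retinaldehyde enzymes 7 of 11 passed, near the share of all genes, with 6 higher and 1 lower. Aldh8a1 led at 5.17 ± 0.36, and was 0 to 0.103 CPM at E11.5 and 2.37 to 2.68 CPM at E15.5. Aldh1a7 (2.21 ± 0.14), Rdh1 (1.83 ± 0.39) and Adh7 (1.08 ± 0.46) followed, and Aldh1a7 is uncertain because it is a near copy of Aldh1a1. All 5 proximal tubule markers rose with age as well (summed 33.7 to 48.2 CPM at E11.5 and 694 to 799 CPM at E15.5), and their part was not tested.

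Both tested genes of retinoic acid breakdown and carriage rose with age, where 66.1% of all genes tested passed. Cyp26a1, the relative of Cyp26b1 that retinoic acid is known to induce, rose by 2.23 ± 0.37 and stayed low, at 0.0883 to 0.653 CPM at E11.5 and 1.19 to 1.58 CPM at E15.5. Fabp5, a fatty acid carrier that also binds retinoic acid, rose by 0.48 ± 0.065. In retinol uptake and carriage 2 of 5 rose and 2 fell, beside the same 66.1%. The uptake receptor Stra6 fell by 1.84 ± 0.074, from 76.2 to 91.0 CPM at E11.5 to 21.6 to 23.0 CPM at E15.5, and Dgat1 fell by 0.29 ± 0.077. The serum carriers Ttr and Rbp4 rose by 4.31 ± 0.66 and 0.87 ± 0.35 but reached only 1.98 and 1.71 CPM, and 3 of 4 tested liver and gut markers rose too (0.681 to 14.8 CPM at E11.5, 65.9 to 121 CPM at E15.5), whose part was not tested.

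**Figure D4:**
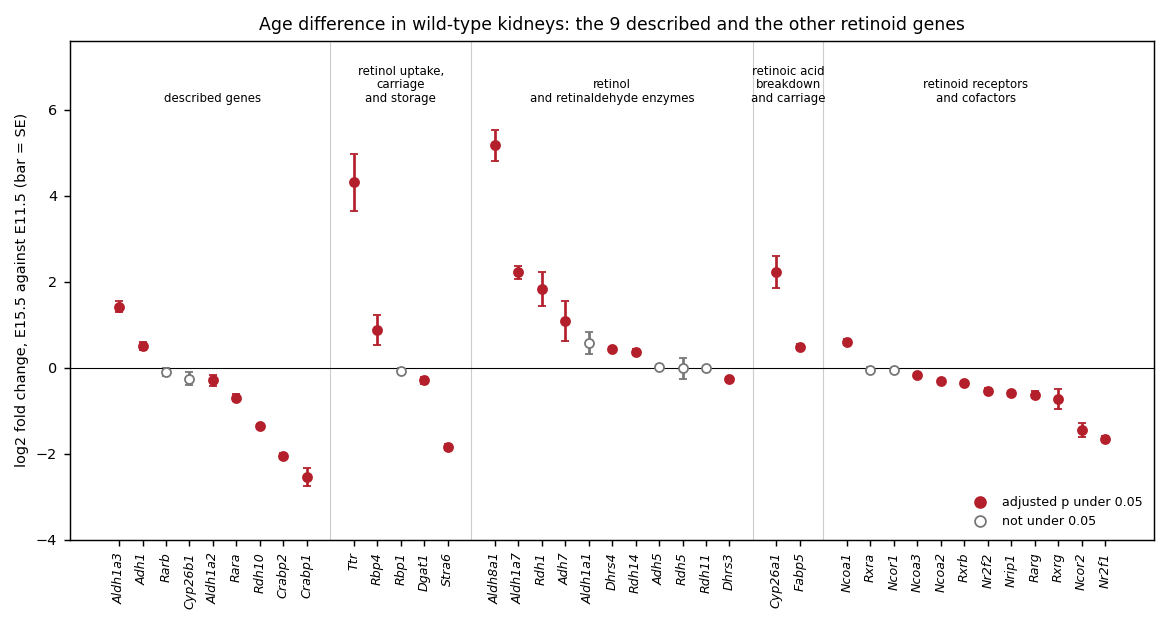
Log2 fold change from E11.5 to E15.5 in wild-type kidneys (vertical axis, bar = standard error) for the 9 described genes and the 30 other retinoid genes tested, grouped by role and filled where the adjusted p was under 0.05. Most receptors and cofactors lie under 0, and most enzymes that passed lie above it, where 66.1% of all genes tested passed.

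A list of 20 genes known to respond to retinoic acid in other systems, some of them also counted above, was read as levels only. In knockout against wild-type kidneys at E11.5 1 of 15 tested rose (Nrip1) and 1 fell, beside 7.09% of all genes called. The one that fell was Hoxb1, a homeobox gene with known retinoic acid response elements, at 4.6 ± 1.63 CPM in wild-type, 3.41 ± 0.405 CPM in heterozygous and 0.752 ± 0.671 CPM in knockout kidneys. Its log2 change was -2.61 ± 0.38 (edgeR adjusted p = 0.000326) against wild type and -2.30 ± 0.41 (edgeR adjusted p = 0.00414) against heterozygotes, where it was the 1 of 15 that passed (background 3.69%). Both calls held with each specimen left out and under 10 and 8 of 12 other alternatives. Against wild type the value was -2.66 in batch 1 (edgeR adjusted p = 0.0152) and -2.74 in batch 2 alone (edgeR adjusted p = 0.106), and against heterozygotes -2.45 and -2.52 (edgeR adjusted p = 0.254 and 0.216). Without the libraries above 5% ribosomal counts these were -2.44 and -2.17 (edgeR adjusted p = 0.0625 and 0.0635). The -2.45 of batch 1 compared female knockouts with male heterozygotes, and only the wild-type specimens there tell it from sex. In CPM all 5 knockout values (0.168 to 1.84 CPM) lay below every wild-type value (2.51 to 6.44 CPM). Ret, the receptor of the ureteric bud, was at 0.46 ± 0.14 in knockout against wild type and did not pass (edgeR adjusted p = 0.0539). Heterozygotes differed from wild type in 0 of 15 at E11.5 by edgeR or DESeq2, with 1 at an unadjusted p under 0.05 (8.25% of all genes). With age 14 of 17 passed, 11 lower and 3 higher, beside the 66.1% of all genes (5571 lower and 5908 higher of 17362). The largest changes were Hoxb1 at -6.25 ± 0.46, Gbx2 at -3.89 ± 0.53, Cyp26a1 and Stra6, and Hoxb1 and Gbx2 were at most 0.0644 and 0.0752 CPM in wild-type kidneys at E15.5.

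The genes whose levels ran most like those of the 9 across the 16 E11.5 specimens, with batch and sex removed and over 11428 genes with a mean of at least 5 CPM, are given as a description. Pearson's r was highest with Nmd3 for Rdh10 (r = 0.918, rho = 0.891), Phldb2 for Adh1 (r = 0.883, rho = 0.888) and Ntm for Aldh1a2 (r = 0.927, rho = 0.868). It was highest with Daam1 for Aldh1a3 (r = 0.928, rho = 0.859), H1fx for Rara (r = 0.867, rho = 0.715) and Colec12 for Rarb (r = 0.936, rho = 0.935). For Cyp26b1 it was Dab2 (r = 0.942, rho = 0.874), for Crabp1 Ptrf (r = 0.914, rho = 0.885) and for Crabp2 BC034090 (r = 0.852, rho = 0.865). Without the 2 specimens farthest from the gene's median these r were 0.89, 0.875, 0.926, 0.867, 0.671, 0.925, 0.821, 0.869 and 0.694 in the same order. The points share libraries and genotype groups, so these values rank genes and test nothing. The next gene was Zfp146 for Rdh10 (r = 0.917), Esr1, the estrogen receptor, for Adh1 (r = 0.877, rho = 0.871) and Myrf for Aldh1a2 (r = 0.901). It was Cnnm2 for Aldh1a3 (r = 0.883), Furin for Rara (r = 0.83) and Cyp1b1 for Rarb (r = 0.901). Aebp1 came next for Cyp26b1 (r = 0.94), Ehd2 for Crabp1 (r = 0.907) and Pitpnm1 for Crabp2 (r = 0.797). Genotype was not removed, so the Adh1 values include the E11.5 levels that chose it.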

How the data were processed

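Whole embryonic kidney RNA was sequenced as 33 libraries. The deposited values are raw counts of reads per gene symbol, which the authors made with STAR 2.4.0h1, featureCounts 1.4.6 and build mm10, per the submitters' processing notes. Strand setting, annotation and handling of multiply mapped reads are not given in the sources used here. The deposited gene length, of no stated source, was used only for CPM per kilobase. Runs of a specimen were summed, leaving 24 specimens.

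Genes kept by filterByExpr (minimum count 10, minimum total 15) were tested with edgeR 4.0.16 (R 4.3.3, limma 3.58.1): TMM scaling, quasi-likelihood F test, Benjamini-Hochberg adjustment at 0.05 over all genes tested. The E11.5 fit held genotype, sex and batch over 16 specimens. Batch, given by the labels and equal to the replicate number of the titles, is thus the replicate block and pairs the groups, with 0.5 for the specimen read as run in both. The E15.5 fit held genotype and sex. Age and the difference of heterozygous effects used all 24 specimens. The code recovered known changes in simulated counts. DESeq2 1.42.0, other scaling, filters, terms, batches and left-out specimens were alternatives. Columns without a sample numbered 0.

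Named were the 9 genes in each comparison and, from each other list, at most 4 passing genes by size of change. The genes, lists and tests were chosen with earlier results of these data known, and the 8 ribosomal symbols after the counts were seen. Cell type lists that are not described beside a result (mesothelium, endothelium, ureter mesenchyme) had 0, 0 and 1 (Tbx18, higher by 0.57) genes passing of 7, 5 and 5 in knockout against wild type (background 7.09%). Results that need certain genes are not reported here. Gene positions came from GENCODE vM21.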

Additional observations from a re-analysis of the deposited data

Results flagged for a closer look

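Of 45 sets of values, each 1 of the 9 genes in 1 of the 5 groups, 4 held a specimen far from the others of its group by Dixon's ratio, and chance alone gives about 1 such set in 20. Adh1 was 12.5 CPM in wild-type replicate 5 at E11.5, where the next value was 9.3 and the lowest 7.5 CPM. Rdh10 was 76.0 CPM in wild-type replicate 2 at E15.5, where the next was 71.1 and the lowest 70.4 CPM. Cyp26b1 was 18.6 CPM in heterozygous replicate 3 at E15.5, where the next was 20.4 and the highest 20.5 CPM. Crabp1 was 20.7 CPM in heterozygous replicate 4 at E15.5, where the next was 16.4 and the lowest 15.7 CPM. By edgeR Crabp1 passed without this specimen and also without wild-type replicate 2. The specimens of Rdh10 and Crabp1 are the females of their groups.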

How the results depend on the processing

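Of 1485 refits of the 54 results on single genes (9 genes in 6 comparisons), 1413 kept their side of the threshold, 66 lost a call, 6 gained one and 0 turned a called direction. A further count within the 1413 is 61 refits in which a value that did not pass changed sign. The numbers of the 9 genes called moved as follows, in the order knockout against wild type, knockout against heterozygous and heterozygous against wild type at E11.5, where the original counts are 3, 2 and 1. With no replicate block, that is with batch left out, 0, 0 and 0 were called. In batch 1 alone, with fewer specimens, 0, 0 and 0 were called, and in batch 2 alone 1, 1 and 0. With the title prefix as block in place of batch they were 1, 1 and 0. This prefix opens each E11.5 title and several specimens share one, but what it groups is not given. Prefixes G1 and G3 hold no knockout and G6 holds knockouts only, so it is uneven over genotype. Whether specimens that share a prefix are independent is not known. With only the groups compared the first and the last fell to 1 and 0. The ribosomal share as covariate gave 1 in the first, and leaving out the libraries above 5% ribosomal counts gave 0 in the last. Leaving out 1 specimen gave 1 to 3 in the first, where knockout replicate 5 gave 1. It gave 1 to 2 in the second, with 1 without heterozygous replicate 1, 2 or 3 or knockout replicate 5. It gave 0 to 1 in the last, with 0 without heterozygous replicate 4 (Adh1, edgeR adjusted p = 0.0596). In heterozygotes at E15.5 the count was 2, it was 1 in batch 2 runs alone and 3 by DESeq2, which also called Crabp1, and it ran from 1 to 2 with a specimen left out. Between the ages it stayed from 6 to 8 over every refit, and for the difference of heterozygous effects at 0. The cause of these moves was not tested where fewer specimens do not account for them. The block lowers the residual spread at E11.5: Rdh10 in knockout against wild type was -0.33 with SE 0.095 (edgeR adjusted p = 0.09) with no replicate block. At E15.5 the numbers 1 to 4 in the titles of both genotypes name specimens and did not pair them: 2 of 4 same-numbered pairs had a correlation of deviations over 0.1 (range -0.155 to 0.303). With that number as replicate block, chosen after seeing the data, the same count of 2 was called (Rdh10 0.23 and Cyp26b1 0.33, edgeR adjusted p = 0.0073 and 0.0101), and 86 of all genes were in place of 104. Depth limits Adh1, Aldh1a3 and Cyp26b1 most, with at least 85, 175 and 193 counts in a library.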
